A study of Mus musculus with 2 samples.

Results

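The 31 hypoxia and glycolysis genes were the rows of the deposited count tables whose symbol stood on a list of genes of the response to low oxygen and of sugar breakdown, 31 of the 27998 genes counted. They were grouped by role. Hif1a encodes the oxygen-regulated subunit of the transcription factor HIF-1, and 9 genes are known targets of it (Vegfa, Adm, Ddit4, Bnip3, Ndrg1, Egln3, P4ha1, Higd1a and Ankrd37). The 20 glycolysis members are the transporters Slc2a1, Slc2a3 and Slc16a3, the hexokinases Hk1, Hk2 and Hk3, the 11 core enzymes Gpi1, Pfkl, Pfkp, Aldoa, Tpi1, Gapdh, Pgk1, Pgam1, Eno1, Pkm and Ldha, and the regulators Pfkfb3, Pfkfb4 and Pdk1. The cytokine gene Mif, itself a known HIF target, was kept apart. Their symbols alone decided membership, although the list itself was drawn up with earlier results of these data known.

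CD45+ cells, the leukocyte fraction, were sorted from subcutaneous tumors of LLC, a mouse lung carcinoma cell line, on day 14 after implantation into C57/BL6 mice aged 10 weeks. Control mice carried loxP-flanked alleles of the microRNA miR-21 (miR-21fl/fl). LysMCre;miR-21fl/fl mice carried in addition Cre recombinase under the lysozyme M promoter, which is active in macrophages and granulocytes but not in lymphocytes. Cells of 3 mice were pooled into 1 droplet library per genotype, so the data held 2 libraries and no replicate, and no comparison below has a test or a p-value. The titles call the libraries wt and cko, whereas the description of the cell source assigns the conditional knockout to the library titled wt. The libraries are therefore named by their titles, labelled wt and labelled cko, and every direction below rests on the titles. One protocol text also names a macrophage gate (CD11b, MHCII and F4/80) in place of CD45 alone, and the lymphoid and granulocytic cells described below would not pass such a gate.

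In normal oxygen the HIF-1 subunit encoded by Hif1a is hydroxylated by prolyl hydroxylases such as the product of Egln3, bound by the VHL ubiquitin ligase and degraded, so that the protein is regulated far more than its mRNA. In low oxygen it binds short DNA elements and raises transcription of genes for blood vessel growth, for mitochondrial clearance and for glycolysis, which yields ATP without oxygen. Myeloid cells in tumors use glycolysis heavily, and activated T cells turn to it when they divide.

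Promoter sequences are shown for 4 targets and for the lactate exporter gene Slc16a3, as examples of windows that hold the letters of the element HIF binds, ACGTG or GCGTG. Ankrd37, Bnip3, Ddit4 and Slc16a3 each passed a size rule in at least 1 comparison below, and Adm gave too few UMIs to be compared. Each sequence is the 250 bases before the RefSeq transcription start (GRCm38.p6), 5′ to 3′ on the gene's strand, with every ACGTG or GCGTG in capitals on either strand (CACGT and CACGC are the same letters read from the other strand, and overlapping matches run together). The window of Adm lies at chr7:110627407-110627656 on the plus strand, that of Ankrd37 at chr8:45999851-46000100 on the minus strand, that of Bnip3 at chr7:138909507-138909756 on the minus strand, that of Ddit4 at chr10:59951771-59952020 on the minus strand and that of Slc16a3 at chr11:120948817-120949066 on the plus strand.
Adm: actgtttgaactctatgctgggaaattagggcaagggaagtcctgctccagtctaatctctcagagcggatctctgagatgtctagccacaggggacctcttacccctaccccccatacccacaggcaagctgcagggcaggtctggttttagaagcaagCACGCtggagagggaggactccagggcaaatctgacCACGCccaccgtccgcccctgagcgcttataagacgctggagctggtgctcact
Ankrd37: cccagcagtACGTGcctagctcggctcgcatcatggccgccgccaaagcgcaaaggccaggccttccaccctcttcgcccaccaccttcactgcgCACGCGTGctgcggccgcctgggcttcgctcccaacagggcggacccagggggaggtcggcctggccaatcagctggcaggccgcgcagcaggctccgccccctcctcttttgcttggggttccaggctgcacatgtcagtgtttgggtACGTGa
Bnip3: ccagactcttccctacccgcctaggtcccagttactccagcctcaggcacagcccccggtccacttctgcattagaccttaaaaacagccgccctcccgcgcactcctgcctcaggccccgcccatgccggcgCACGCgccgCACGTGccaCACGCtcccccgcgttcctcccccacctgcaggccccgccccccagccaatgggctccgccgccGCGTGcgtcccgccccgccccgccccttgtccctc
Ddit4: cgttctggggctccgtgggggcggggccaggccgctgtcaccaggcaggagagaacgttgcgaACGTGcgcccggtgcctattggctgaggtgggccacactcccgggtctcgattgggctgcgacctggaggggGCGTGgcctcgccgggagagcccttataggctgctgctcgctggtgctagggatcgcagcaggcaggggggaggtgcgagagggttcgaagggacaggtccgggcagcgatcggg
Slc16a3: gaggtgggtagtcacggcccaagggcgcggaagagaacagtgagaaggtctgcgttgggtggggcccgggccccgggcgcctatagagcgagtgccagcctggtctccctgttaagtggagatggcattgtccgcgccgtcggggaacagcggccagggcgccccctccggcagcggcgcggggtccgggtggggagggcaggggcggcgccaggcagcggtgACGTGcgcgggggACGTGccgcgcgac

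Adm held 2 such matches, Ankrd37 4, Bnip3 5, Ddit4 2 and Slc16a3 2. In windows that also took in the first 50 bases of the transcript, 27 of the 29 members matched to RefSeq held at least 1 match (93.1%), as did 8 of 8 targets and 17 of 19 glycolysis members (89.47%). Over all 27025 genes with a window the share was 46.73%. Gpi1 and Tpi1 held none, which says only that these letters were absent from this window, and Ndrg1 and Slc2a3 were not matched. A match is a run of letters and not a measured binding site.

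The data labelled wt comprised 2449 cells and 24492486 unique molecular identifiers (UMIs, counted molecules), and those labelled cko 2718 cells and 27163485 UMIs, with median depths of 8359 and 8247 UMIs per cell. After filtering, 2397 and 2646 cells were kept, and 5 cell barcodes occurred in both libraries. Classes were gated by UMIs of marker genes and are called X-like. They held, labelled wt and cko, 1100 and 1050 monocyte-like, 580 and 793 macrophage-like, 30 and 67 granulocyte-like and 191 and 224 lymphoid-like cells, 4035 of the 5043 cells kept. The gates fix their own markers. The C1q genes summed to 13124.4 and 13705.7 CPM (the gene's UMIs scaled to 1000000 UMIs of the class) in macrophage-like cells and to between 148 and 214.3 CPM in the other 3 classes. Tumor, epithelial and stromal markers (10 genes) summed to between 17.42 and 86.69 CPM over the 4 classes and libraries, with 2 to 8 of the 10 at 0. Monocyte markers were not low in granulocyte-like cells, where Ly6c2 stood at 656.0 and 359.2 CPM (928.2 and 942.3 CPM in monocyte-like cells) and Plac8 at 4029.2 and 2743.5 CPM (7593.9 and 7070.7 CPM). Lyz2, the site of the LysMCre insertion, stood at 17232.2 CPM over the library labelled wt and 7903.7 CPM over the library labelled cko. It was also lower labelled cko within monocyte-like (23404.8 and 11572.4 CPM), macrophage-like (15672.8 and 7112.2 CPM) and granulocyte-like cells (12406.8 and 4171.1 CPM), the direction that the titles, and not the description of the cell source, give for a disrupted Lyz2 copy.

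Granulocyte-like cells gave the fewest UMIs, 172244 and 331329 in all, so their intervals are the widest. Free RNA was estimated from myeloid genes in lymphoid-like cells at up to 4.347% and 4.497% of the library level. Against that, Vegfa and Adm in lymphoid-like cells labelled wt, and Adm in lymphoid-like and granulocyte-like cells labelled cko, were at or below background. Every interval below is a 95% interval of counting error and leaves out the variation among mice, pools and cells. UMIs were read at the 3′ end and not scaled by length, so levels are compared between classes and libraries for 1 gene, or within 1 gene family as shares of UMIs, and not between unrelated genes.

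Glycolysis genes took about 1% of all UMIs in every class. In order of level, the 20 glycolysis members summed to 12209.4 (11693.1 to 12742.7) and 14469.0 (14062.3 to 14884.5) CPM in granulocyte-like cells labelled wt and cko, and to 10695.8 and 11326.4 CPM in monocyte-like cells. Lymphoid-like cells held 9712.2 and 10463.4 CPM and macrophage-like cells 9200.8 (9133.8 to 9268.2) and 9760.3 (9699.5 to 9821.3) CPM. This order was the same in both libraries, but TMM scaling (trimmed means, added after seeing the data) turned its last step. Lymphoid-like over macrophage-like cells, the glycolysis sum then went from log2 0.08 and 0.10 to −0.17 and −0.14, and the target sum from 0.14 and 0.06 to −0.11 and −0.18. The 9 targets summed to 812.8 (683.7 to 959.1) and 781.7 (689.4 to 882.9) CPM in granulocyte-like, 591.9 and 705.4 CPM in monocyte-like, 518.6 and 592.2 CPM in lymphoid-like and 471.9 and 567.3 CPM in macrophage-like cells, the same order again before TMM scaling, although the counting intervals of lymphoid-like and macrophage-like cells overlapped in both libraries and those of granulocyte-like and monocyte-like cells did so labelled cko. The last step of the target order rested on Ddit4, at 137.6 and 185.1 CPM in lymphoid-like and 51.54 and 122.1 CPM in macrophage-like cells. Of the 6 targets compared between these classes, 3 were above 0 in each library (all genes: 52.8% and 53.5%), with median log2 ratios of −0.17 and −0.10.

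**Figure D1:**
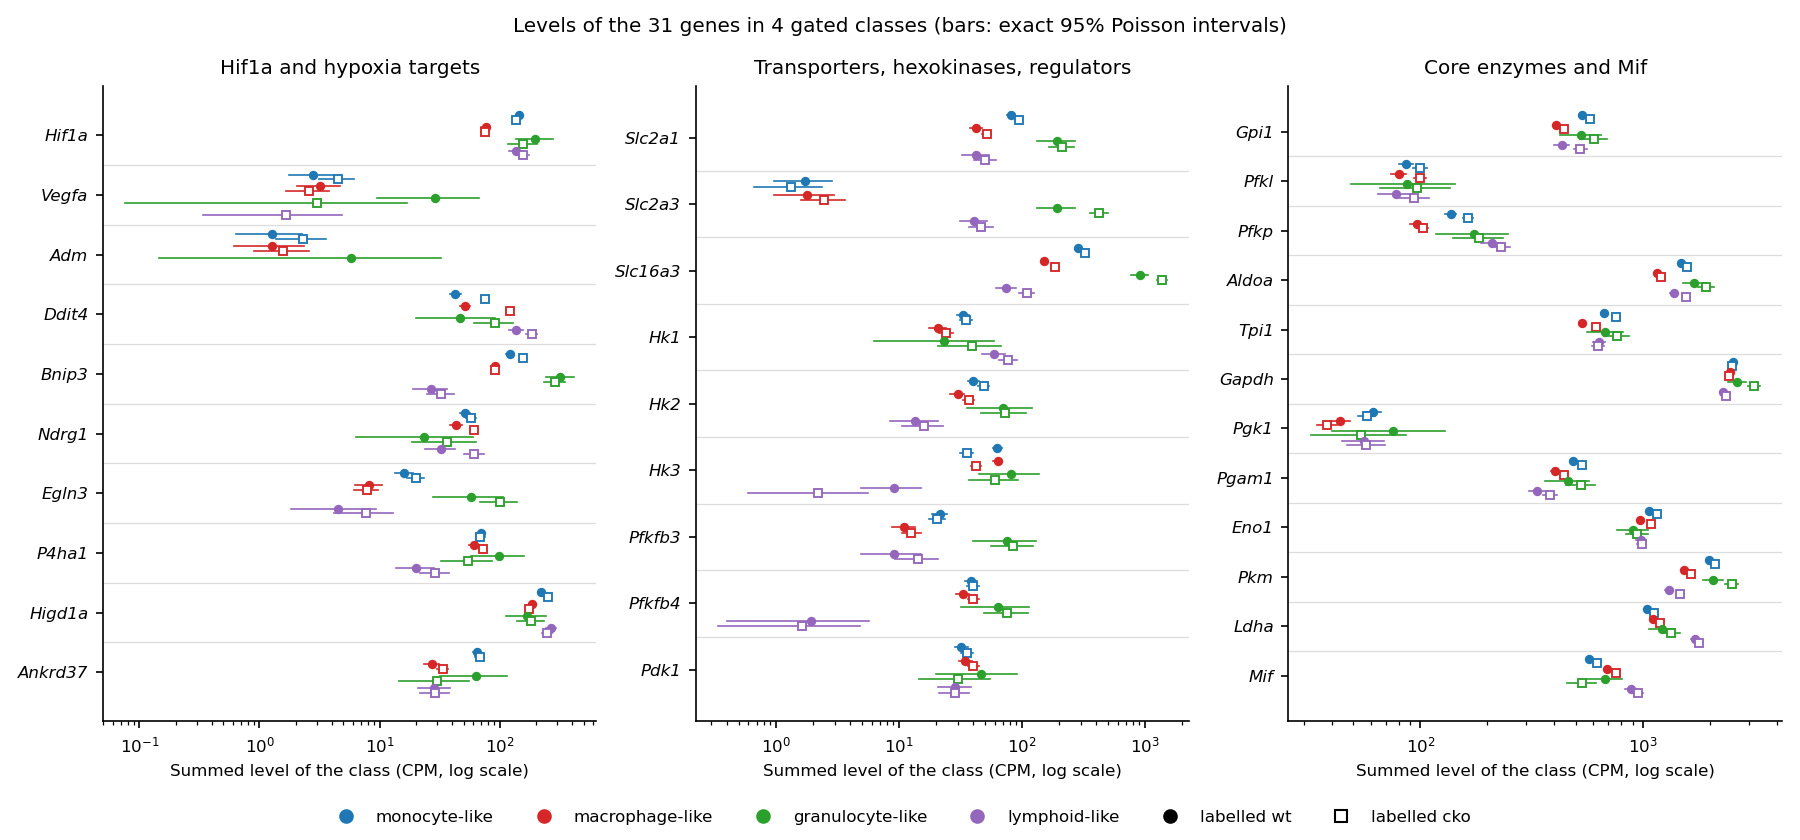
Summed level of each of the 31 genes in 4 gated classes, in CPM on a log axis, with exact 95% Poisson intervals as bars, filled circles for the library labelled wt and open squares for the library labelled cko; levels of 0 are not drawn. Slc16a3 and Slc2a3 stand far to the right in granulocyte-like cells, and Vegfa and Adm lie near the bottom of the scale in monocyte-like and macrophage-like cells.

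The transcription factor subunit gene Hif1a (ENSMUSG00000021109) was lowest in macrophage-like cells, at 76.29 (70.3 to 82.66) and 75.04 (69.8 to 80.57) CPM. It stood at 143.5 and 136.7 CPM in monocyte-like, 137.6 and 156.0 CPM in lymphoid-like and 197.4 (136.7 to 275.8) and 156.9 (117.2 to 205.8) CPM in granulocyte-like cells. The intervals of the latter 3 classes overlapped, whereas every one of them lay above both macrophage-like values. In 3000 UMIs per cell, 22.41% and 23.2% of macrophage-like cells and 32.09% and 30.95% of monocyte-like cells held a Hif1a UMI.

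Vegfa, the blood vessel growth factor, and Adm, the vasodilator peptide adrenomedullin, were near the detection limit in these leukocytes. Vegfa had 24 and 37 UMIs over all monocyte-like cells, 25 and 26 over macrophage-like cells, 5 and 1 over granulocyte-like cells and 0 and 3 over lymphoid-like cells. That is 2.767 and 4.476 CPM in monocyte-like and 3.19 and 2.567 CPM in macrophage-like cells. No difference in Vegfa between libraries was detectable at this depth, with log2 ratios, cko over wt, of 0.69 (−0.09 to 1.499) in monocyte-like and −0.31 (−1.16 to 0.54) in macrophage-like cells. Adm was thinner still, with 11 and 19 UMIs in monocyte-like and 10 and 16 in macrophage-like cells.

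The first comparison asked how the genes differ between recruited monocytes and the macrophages they give rise to in the tumor. Hif1a, Egln3, Slc2a1, Slc16a3 and Pfkfb3 stood at higher levels in monocyte-like than in macrophage-like cells of both libraries, but only Ankrd37 passed the size rule. By the size rule, a log2 ratio past 1 in the same direction in both libraries among genes expected to give at least 20 UMIs in each class and library, 1 of 29 members compared was higher (all genes: 3.43% of 9341) and 0 were lower (all genes: 6.43%). That gene was Ankrd37, which encodes an ankyrin repeat protein, at 64.79 and 67.99 CPM in monocyte-like and 27.05 and 33.57 CPM in macrophage-like cells. Its log2 ratios were 1.26 (1.03 to 1.495) labelled wt and 1.02 (0.82 to 1.22) labelled cko. Over the alternatives the latter lay between 0.83 and 1.09, and it was under 1 with means over cells, with thinning, with doublets kept and without cycling cells.

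Egln3, the prolyl hydroxylase gene, was 15.91 and 19.96 CPM against 8.165 and 7.8 CPM, log2 0.96 (0.52 to 1.41) and 1.36 (0.96 to 1.76). Hif1a itself differed by log2 0.91 and 0.87. The glucose transporter gene Slc2a1 stood at 81.28 and 93.88 CPM against 42.61 and 51.74 CPM, log2 0.93 (0.74 to 1.12) and 0.86 (0.70 to 1.02). With every cell thinned to 3000 UMIs the log2 ratios of Egln3 were 0.35 (−0.40 to 1.13) and 0.46 (−0.14 to 1.07). Egln3, Hif1a and Slc2a1 thus lay just under the fold in at least 1 library. Slc16a3, the lactate and pyruvate exporter MCT4, was 286.4 and 326.2 CPM against 149.9 and 183.9 CPM, log2 0.93 (0.83 to 1.03) and 0.83 (0.74 to 0.91). Pfkfb3, which makes the activator of phosphofructokinase, differed by log2 0.97 and 0.70 (thinned, 0.78 and 0.19), Bnip3, a mitophagy receptor, by 0.40 and 0.79, and Pfkp, the platelet-type phosphofructokinase, by 0.50 and 0.67. Gapdh, at log2 0.04 and 0.05, and Ldha, which makes lactate, at −0.09 and −0.08, differed less than the median of the 11 core enzymes (0.34 and 0.30). Of the 29 members compared, 23 labelled wt and 20 labelled cko were above 0 (all genes: 43.7% and 42.4%). Those on the other side in both libraries were Ddit4 at log2 −0.27 and −0.69, Mif at −0.27 and −0.28, Pdk1 at −0.10 and −0.16, Hk3 at −0.02 and −0.25, and Ldha. The median of the 19 glycolysis members compared was 0.36 and 0.35, against −0.08 and −0.09 over all genes, and that of the 8 targets 0.26 and 0.65.

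Transitional cells, which passed both the Ly6c2 and the C1q gates (228 and 181 cells), lay between the ends for some of these genes. Hif1a was 110.7 and 122.3 CPM there, Ankrd37 47.86 and 54.67 CPM, Slc2a1 65.05 and 70.02 CPM and Slc16a3 223.2 and 269.0 CPM. Each of these values lay between those of the monocyte-like and the macrophage-like cells of its own library. Pfkp labelled cko (168.8 CPM, against 163.4 CPM in monocyte-like cells) and Gapdh labelled wt (2596.6 CPM) did not, and stood above both ends. Of the 27 members compared, 0 passed log2 1 against macrophage-like cells in both libraries, upward (all genes: 1.1% of 6900) or downward (all genes: 1.61%).

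Granulocyte-like cells held more transporter mRNA than the other 3 classes. Slc16a3 reached 911.5 (774.5 to 1065.8) and 1370.2 (1247.1 to 1502.3) CPM, 6.08-fold and 7.453-fold the macrophage-like level, log2 2.60 (2.36 to 2.85) and 2.90 (2.75 to 3.05). It was the 1 of 11 members compared that passed the fold upward (all genes: 4.58% of 1267), and 0 of 11 passed it downward (all genes: 27.9%). The other members that stood far apart fell short of the size rule's minimum and are given as values. That minimum is on the UMIs expected in the 30 cells at the level pooled over both classes, not on the UMIs seen. Slc2a3, the high-affinity glucose transporter GLUT3, had 33 and 141 UMIs in granulocyte-like cells, or 191.6 (131.9 to 269.1) and 425.6 (358.2 to 501.9) CPM, against 14 and 25 UMIs in macrophage-like cells, or 1.786 and 2.468 CPM. Its highest macrophage-like bound, 3.644 CPM, lay far below its lowest granulocyte-like bound.

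Slc2a1 was 191.6 and 211.3 CPM in granulocyte-like cells, log2 2.17 (1.61 to 2.69) and 2.03 (1.65 to 2.39) over macrophage-like cells. Egln3 was 58.06 and 99.6 CPM (10 and 33 UMIs), log2 2.83 and 3.68, and Bnip3 319.3 and 286.7 CPM, log2 1.80 and 1.66. Pfkfb3 stood at 75.47 and 84.51 CPM (13 and 28 UMIs), log2 2.78 and 2.74. Among the well-counted enzymes the gaps were small. Aldoa, the aldolase, was log2 0.56 and 0.67 above macrophage-like cells and Pkm, the pyruvate kinase, 2066.8 and 2508.1 CPM against 1537.3 and 1649.9 CPM. The median of the 9 glycolysis members compared was 0.35 and 0.37, against −0.64 and −0.96 over all genes. S100a8 and S100a9 alone took 12.43% and 18.46% of granulocyte-like UMIs, which lowers every other gene's CPM, and scaling by trimmed means (TMM) raised all log2 ratios of this class by 0.30 and 0.68.

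Lymphoid-like cells held more Hk1 and Pfkp and less Hk3, Pfkfb4 and Bnip3 mRNA than macrophage-like cells. Of 26 members compared with macrophage-like cells, 2 were higher past the fold in both libraries (all genes: 8.08% of 6253) and 5 were lower (all genes: 16.1%). The higher ones were Hk1, the ubiquitous hexokinase, at 59.07 and 76.91 CPM against 20.8 and 24.19 CPM, log2 1.51 (1.12 to 1.89) and 1.67 (1.36 to 1.97), and Pfkp at 209.7 and 230.7 CPM, log2 1.11 and 1.17. Pfkp was under the fold with TMM scaling (0.86 and 0.93), with means over cells (0.95 and 0.99) and with thinning (0.83 and 0.9989). The lower ones were the targets Bnip3 (26.61 and 32.41 CPM, log2 −1.78 and −1.49) and P4ha1, a collagen prolyl hydroxylase subunit (20.12 and 29.12 CPM, log2 −1.61 and −1.31), the hexokinases Hk2 (log2 −1.14 and −1.22) and Hk3 (−2.81 and −4.26), and Pfkfb4. Pfkfb4, the second bifunctional regulator of phosphofructokinase, had 3 UMIs in each library, 1.947 (0.40 to 5.69) and 1.648 (0.34 to 4.82) CPM, against 33.04 and 40.38 CPM in macrophage-like cells.

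Ldha was higher in lymphoid-like than in macrophage-like cells, at 1715.5 and 1788.8 against 1111.2 and 1193.1 CPM, log2 0.63 and 0.58, within the fold. Mif differed by log2 0.35 and 0.33. Slc16a3 was lower, at 74.0 and 109.9 CPM, log2 −1.02 and −0.74. Slc2a3 was seen in 63 and 85 UMIs, 40.89 and 46.7 CPM, against the few UMIs of macrophage-like cells given above. TMM scaling moved all log2 ratios of this class by −0.25 and −0.24, and the median of its 18 glycolysis members then went from −0.03 and −0.06 to −0.27 and −0.30. Within the class, cells with T cell markers (136 and 171) held 49.4 and 56.76 CPM of Slc2a3 and cells with NK cell markers (51 and 48) 25.56 and 12.73 CPM. Gapdh was 2568.9 and 2639.7 CPM in the former and 1526.0 and 1563.2 CPM in the latter.

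**Figure D2:**
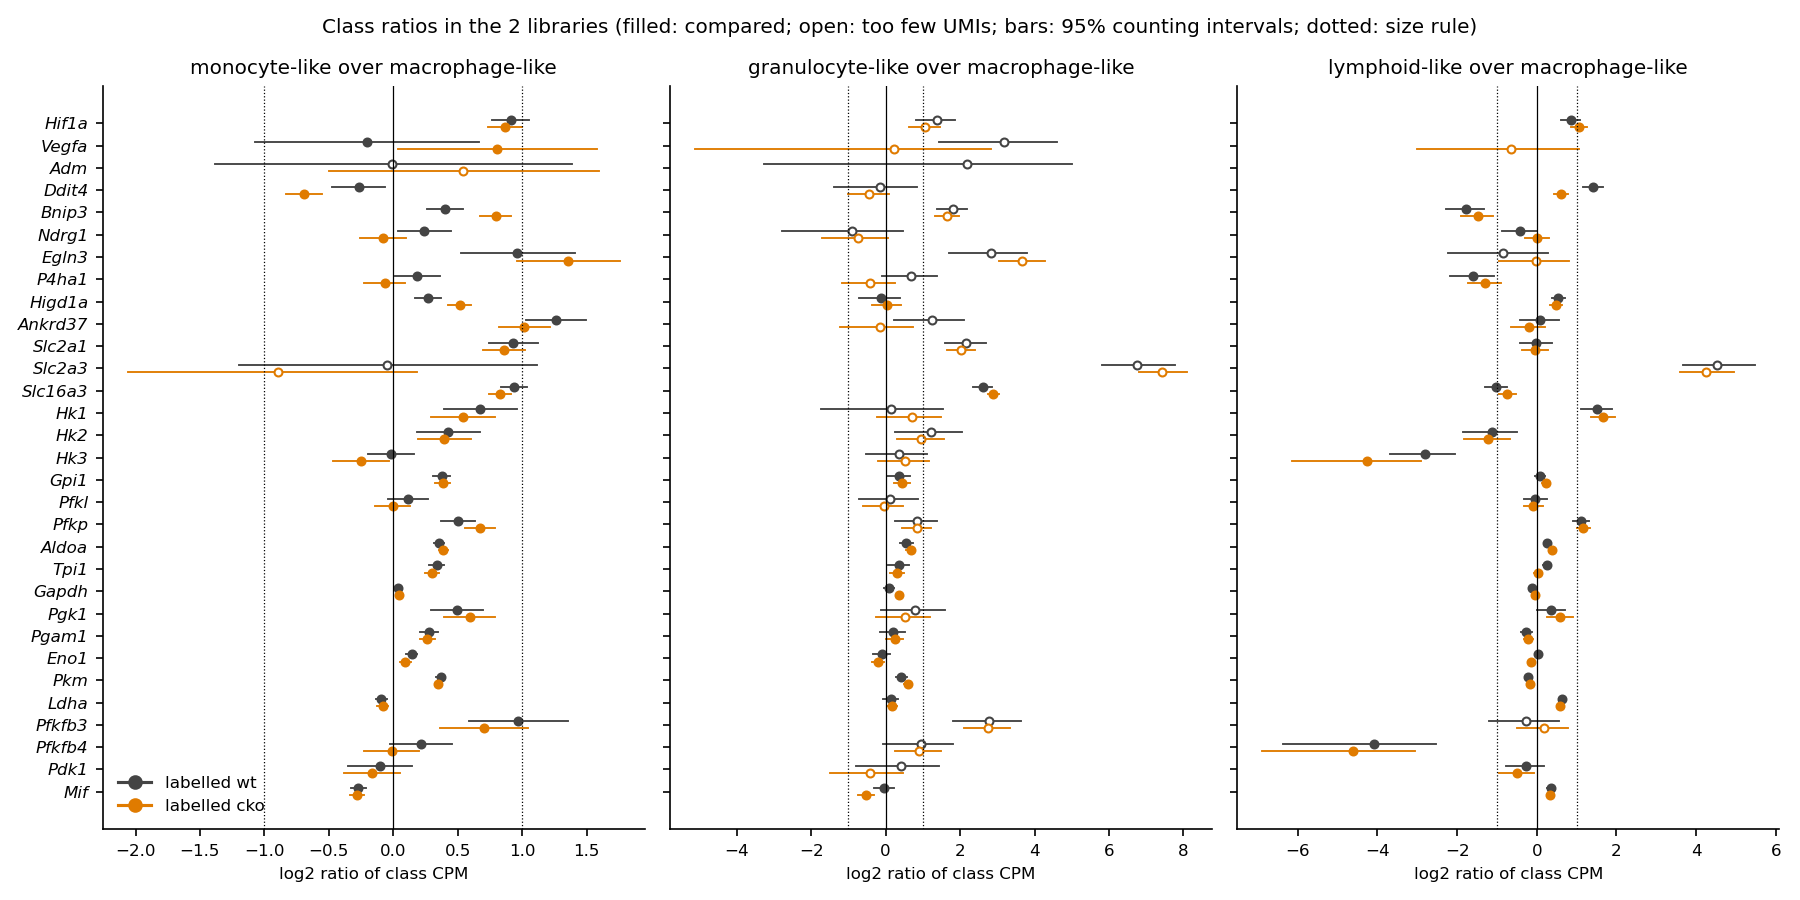
Log2 ratio of class CPM over macrophage-like CPM for each gene and library, with exact 95% counting intervals; filled points met the minimum UMIs of the size rule, open points did not, and dotted lines mark log2 1. In monocyte-like cells most points lie between 0 and 1, in granulocyte-like cells Slc2a3 reaches log2 6.75 and 7.43, and in lymphoid-like cells Hk3 and Pfkfb4 lie far to the left.

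The classes drew on different paralogs for the same step. Of the UMIs of Slc2a1 and Slc2a3 together, Slc2a1 made up 97.92% and 98.6% in monocyte-like and 95.98% and 95.45% in macrophage-like cells, but 50% and 33.18% in granulocyte-like and 50.78% and 51.98% in lymphoid-like cells. Hk1 made up 72.22% and 80.92% of hexokinase UMIs in lymphoid-like cells, against 18.19% and 23.38% in macrophage-like cells. Hk3, a hexokinase of myeloid cells, made up 55.58% of hexokinase UMIs in macrophage-like cells labelled wt and 40.74% labelled cko, and 46.07% and 29.66% in monocyte-like cells.

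Pfkfb4 made up 75.07% and 76.16% of Pfkfb3 and Pfkfb4 UMIs in macrophage-like cells and 17.65% and 10.34% in lymphoid-like cells. Pfkp made up between 49.76% and 72.75% of the phosphofructokinase UMIs (Pfkl, Pfkp and Pfkm) over the 4 classes. Ldha gave at least 98.97% of the lactate dehydrogenase UMIs in each class and library. Eno1 gave most enolase UMIs everywhere, while Eno3, the form of muscle, reached 9.977% and 8.59% in lymphoid-like cells. Gapdh, Pgk1, Eno1 and Aldoa have processed pseudogenes or close copies with which reads can be shared, and the 2 splice forms of Pkm cannot be told apart at the 3′ end.

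**Figure D3:**
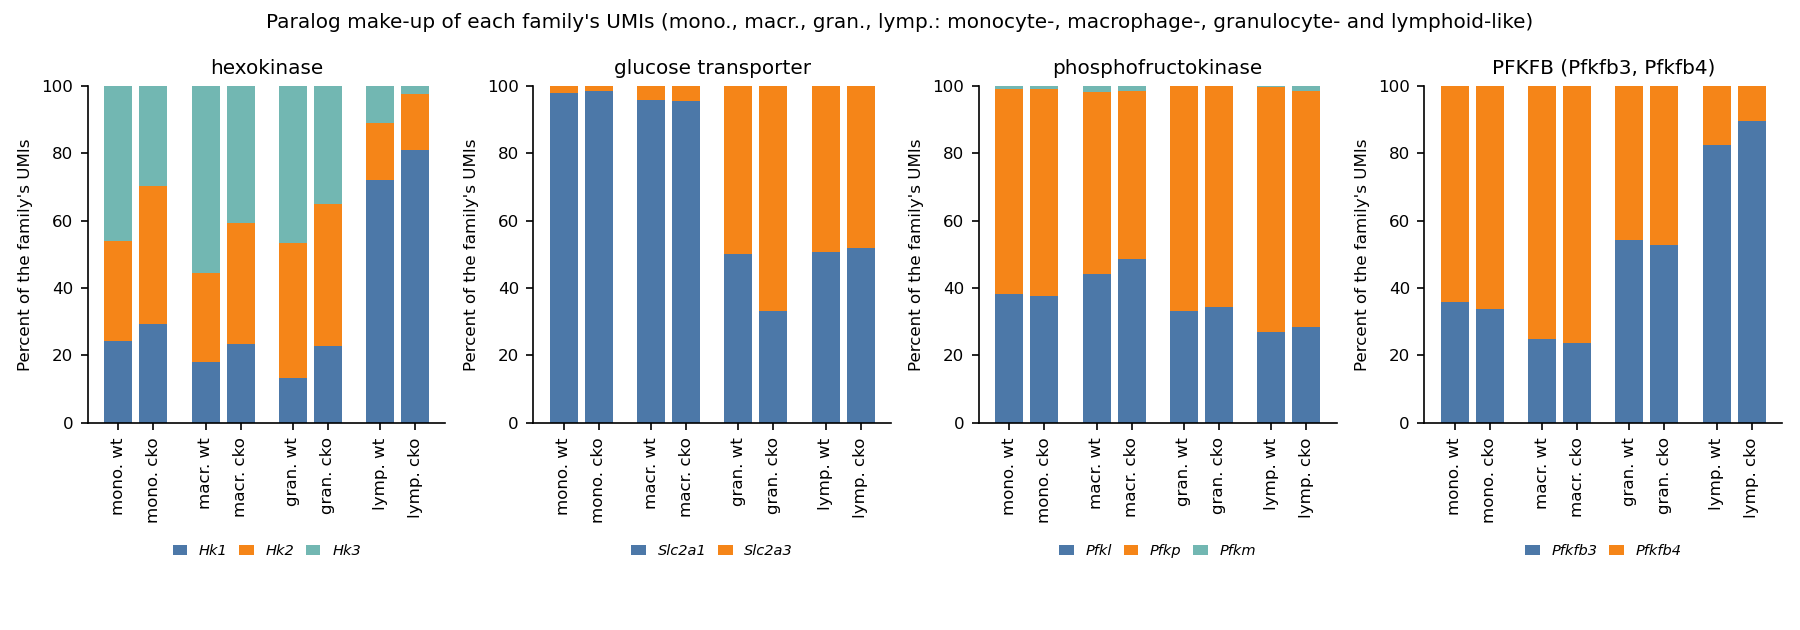
Share of each gene in the UMIs of its family (hexokinases, glucose transporters, phosphofructokinases, Pfkfb3 and Pfkfb4), by class and library, in percent. The Hk1 share is the largest in lymphoid-like cells (72.22% and 80.92%), and the Slc2a1 share is between 33.18% and 51.98% in granulocyte-like and lymphoid-like cells against over 95% in the other 2 classes.

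The second comparison set the libraries against each other within a class, to ask whether the genes differ where miR-21 is deleted in macrophages and granulocytes. Ddit4, which encodes the mTORC1 inhibitor REDD1 and answers to hypoxia and to other stresses, was higher and Hk3 lower in the library labelled cko in both monocyte-like and macrophage-like cells, whereas the core enzymes differed by at most log2 0.32. By the size rule here, a log2 ratio past 0.5 among genes expected to give at least 50 UMIs in each library, 1 of 28 members compared was higher in monocyte-like cells (all genes: 1.83% of 7691) and 1 was lower (all genes: 1.2%). In macrophage-like cells, 1 of 28 was higher (all genes: 3.62% of 7953) and 1 lower (all genes: 1.18%).

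Ddit4 (ENSMUSG00000020108, chromosome 10, 59949669 to 59951834, GRCm38) stood at 42.77 (38.53 to 47.35) CPM labelled wt and 75.61 (69.8 to 81.78) CPM labelled cko in monocyte-like cells. In macrophage-like cells the values were 51.54 (46.64 to 56.82) and 122.1 (115.4 to 129.1) CPM. The log2 ratios, cko over wt, were 0.82 (0.63 to 1.01) and 1.25 (1.08 to 1.41), and the counting intervals of the libraries did not overlap. Leaving out the cell with the most Ddit4 UMIs in each class and library gave log2 0.83 and 1.27. At 3000 UMIs per cell, 11.21% of macrophage-like cells labelled wt and 24.59% labelled cko held a Ddit4 UMI.

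The same direction was seen outside these classes. Ddit4 was 42.62 and 100.2 CPM in transitional cells, 63.22 and 171.1 CPM in nonclassical monocyte-like cells and 20.3 and 57.13 CPM in dendritic-like cells. Lymphoid-like cells, in which LysMCre is not active, held 137.6 and 185.1 CPM, log2 0.43 (0.18 to 0.68), within the fold. Ddit4 was higher in the library labelled cko in 10 of the 11 gates into which all cells fell, the exception being 5 and 17 cells with tumor or stromal markers (log2 −0.08). Among the 10, mast or basophil cells gave 2 and 11 UMIs, and the interval of granulocyte-like cells held 0 (log2 0.96, −0.20 to 2.30). All gates share the same 2 libraries, so they are not independent, and other genes were not counted this way. A set of 10 immediate-early and heat-shock genes, chosen after values had been seen (Fos, Fosb, Jun, Junb, Egr1, Ier2, Atf3, Dusp1, Hspa1a and Hspa1b), was counted beside it. Past log2 0.5 upward were 1 of 10 compared in monocyte-like cells (Egr1), 5 of 10 in macrophage-like, 2 of 4 in granulocyte-like and 3 of 6 in lymphoid-like cells, and 0 were past it downward. Upward, the share of all genes was 1.83%, 3.62%, 7.25% and 4.14% in these classes. Above 0 were 9 of 10, 10 of 10, 4 of 4 and 6 of 6 of those compared, beside 57.2%, 57.6%, 36.6% and 54.7% of all genes. In granulocyte-like cells Egr1 and Atf3, with too few UMIs for the rule, stood at log2 −1.18 and −1.73. The summed level of the set was 2000.6 and 2441.7 CPM in monocyte-like, 1233.3 and 1729.6 CPM in macrophage-like, 5062.6 and 7273.7 CPM in granulocyte-like and 778.9 and 1202.6 CPM in lymphoid-like cells. Their part in the Ddit4 difference was not tested.

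In monocyte-like and macrophage-like cells the other hypoxia targets compared lay within the fold. In macrophage-like cells, Bnip3 stood at 91.6 and 90.94 CPM (log2 −0.01, −0.15 to 0.13), Higd1a, a mitochondrial protein gene, at 184.5 and 175.9 CPM (−0.07, −0.17 to 0.03) and Egln3 at 8.165 and 7.8 CPM (−0.07, −0.56 to 0.43). Ndrg1, a stress-response gene, was 43.38 and 60.72 CPM, log2 0.49 (0.29 to 0.68), just inside the fold (0.50 without the cell with the most Ndrg1 UMIs and 0.51 with stricter gates, both past it), Ankrd37 27.05 and 33.57 CPM (0.31) and P4ha1 61.24 and 72.08 CPM (0.24). In transitional cells Ndrg1 was past the fold, at 54.21 and 77.21 CPM, log2 0.51. In monocyte-like cells Bnip3 had the highest ratio after Ddit4 among the 7 targets with enough UMIs, at 120.8 and 157.6 CPM, log2 0.38 (0.27 to 0.50). Hif1a differed by log2 −0.07 (−0.19 to 0.05) in monocyte-like and −0.02 (−0.18 to 0.13) in macrophage-like cells.

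Hk3 went the other way. It stood at 62.83 (57.66 to 68.33) CPM labelled wt and 35.45 (31.5 to 39.75) CPM labelled cko in monocyte-like cells, log2 −0.83 (−1.04 to −0.62), and at 63.53 (58.08 to 69.37) and 42.16 (38.26 to 46.36) CPM in macrophage-like cells, log2 −0.59 (−0.78 to −0.40). Its paralogs differed in the other direction within the fold, Hk2 with 40.35 and 48.88 CPM and Hk1 with 33.2 and 35.2 CPM in monocyte-like cells. In transitional cells Hk3 was 68.79 and 55.63 CPM. Lymphoid-like cells, in which LysMCre is not active, held 14 and 4 Hk3 UMIs, too few for the size rule, at 9.087 and 2.198 CPM and log2 −2.05 (−4.11 to −0.38).

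The glycolysis members as a list, Hk3 included, leaned slightly to the library labelled cko. In monocyte-like cells 15 of the 19 compared were above 0 (all genes: 57.2%), with a median log2 ratio of 0.12, and in macrophage-like cells 16 of 19 (all genes: 57.6%), with a median of 0.17, beside medians of 0.03 over all genes in both classes. Slc16a3 was 149.9 and 183.9 CPM (0.29) and Hk2 29.98 and 37.13 CPM (0.31) in macrophage-like cells. Gapdh differed by log2 −0.01 (−0.04 to 0.02) in monocyte-like and −0.02 (−0.05 to 0.01) in macrophage-like cells. With 1 library per genotype, genotype and pool cannot be told apart.

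In granulocyte-like cells, 2 of 12 members compared were higher in the library labelled cko (all genes: 7.25% of 483) and 0 lower (all genes: 18.6%). Both are transporter genes. Slc2a3 was 191.6 and 425.6 CPM, log2 1.15 (0.60 to 1.75), and Slc16a3 911.5 and 1370.2 CPM, log2 0.59 (0.32 to 0.86). The median of 10 glycolysis members was 0.20, against −0.15 over all genes. TMM scaling raised all log2 ratios here by 0.31, which took that median to 0.51 and the members past the fold from 2 to 6. The share of all genes past the fold with TMM was not counted. Markers differed in the same gate, in both directions. Of the monocyte markers, Ly6c2, Plac8, Ccr2 and Vcan were lower labelled cko (Ly6c2 656.0 and 359.2 CPM) and Chil3 higher (481.9 and 739.4 CPM). Of the neutrophil markers, S100a8, S100a9, Retnlg, Csf3r, G0s2 and Mmp9 were higher (Retnlg 12366.2 and 23212.6 CPM) and Cxcr2 lower (586.4 and 504.0 CPM). Of the macrophage markers, Apoe (412.2 and 1907.5 CPM) and Ms4a7 (29.03 and 156.9 CPM) were higher, C1qc lower (63.86 and 48.29 CPM) and Adgre1 nearly level (104.5 and 105.6 CPM). Apoe was also higher labelled cko over the whole library (1390.0 and 2935.5 CPM). The part of these markers in the transporter differences was not tested. These values rest on 30 cells labelled wt, and with every cell thinned to 3000 UMIs, or with gates made stricter, no member passed the rule. Slc16a3 was then under the fold, at log2 0.32 and 0.20, whereas Slc2a3, at 1.12 and 0.61, was past it and missed the minimum number of UMIs. Over every alternative run Slc2a3 lay between 0.61 and 1.46.

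In lymphoid-like cells, 2 of 20 members were higher in the library labelled cko (all genes: 4.14% of 3789) and 0 were lower (all genes: 2.43%). Ndrg1 was 32.45 (24.09 to 42.79) and 60.98 (50.17 to 73.44) CPM, log2 0.91 (0.42 to 1.42), and Slc16a3 74.0 and 109.9 CPM, log2 0.57 (0.23 to 0.92). In cells with NK cell markers Ndrg1 was 28.12 and 99.29 CPM, and in cells with T cell markers 35.42 and 51.01 CPM. Without cycling cells Slc16a3 was at log2 0.16. The median of 15 glycolysis members was 0.19, against 0.02 over all genes.

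**Figure D4:**
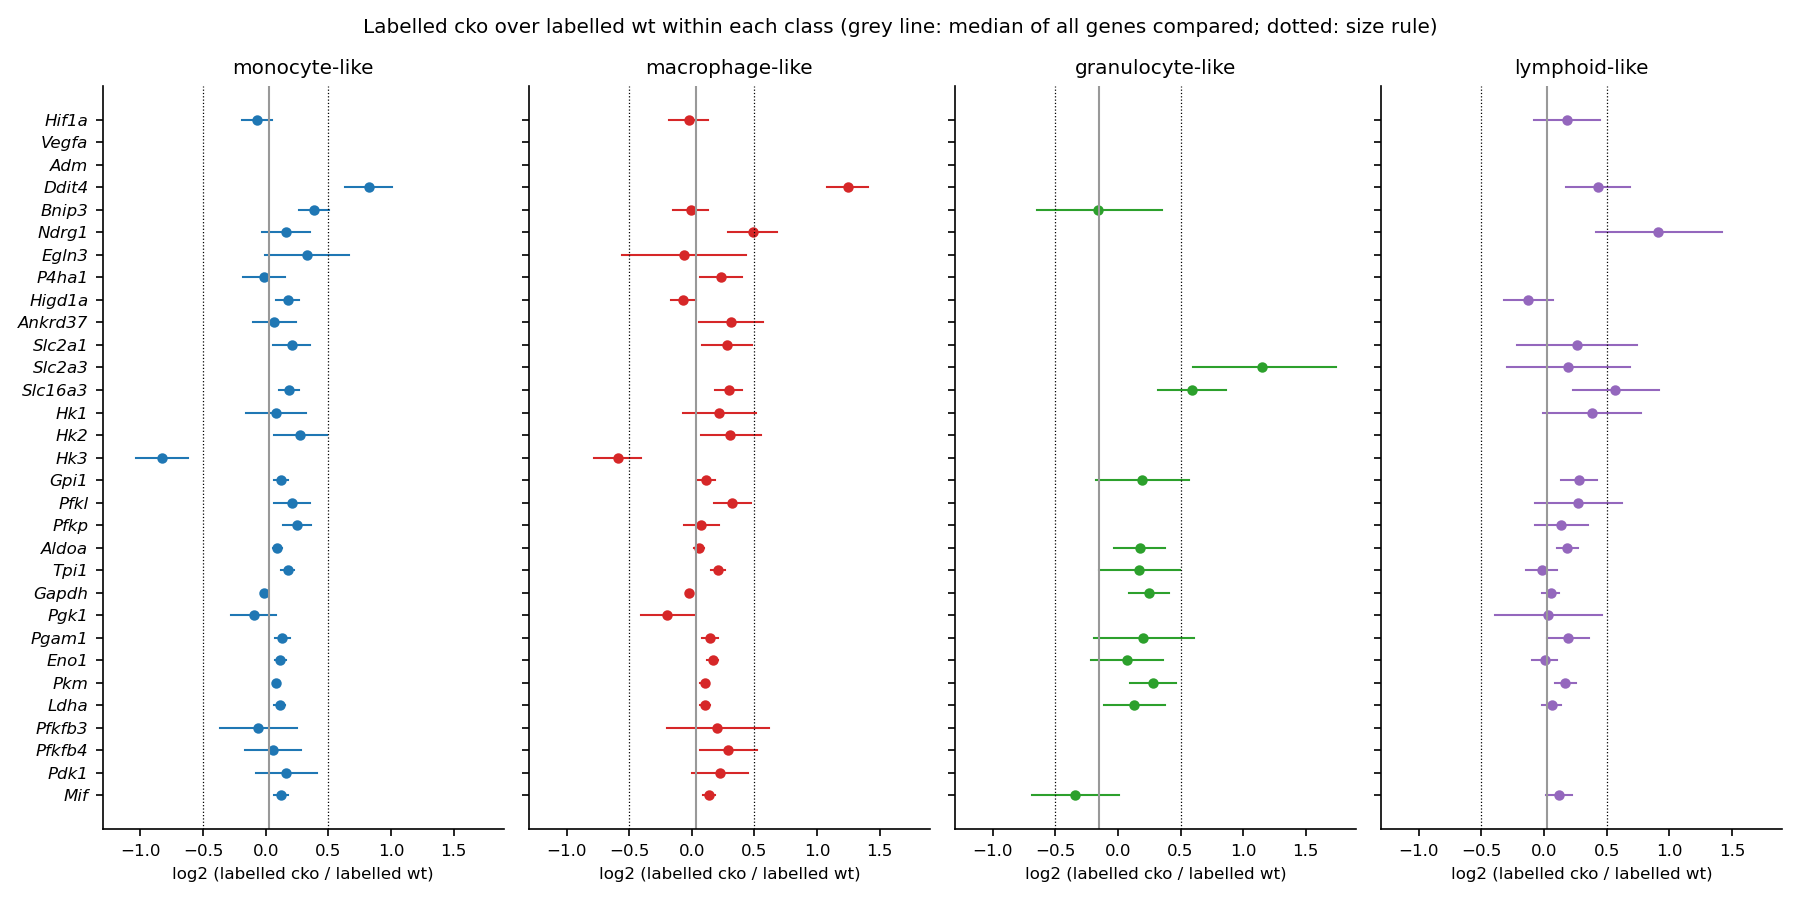
Log2 ratio of class CPM, library labelled cko over library labelled wt, for the genes that met the minimum UMIs in each class, with exact 95% counting intervals; the grey line is the median of all genes compared and dotted lines mark log2 0.5. Ddit4 lies to the right and Hk3 to the left in monocyte-like and macrophage-like cells, while the core enzymes lie near 0.

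Cycling cells, those with at least 2 UMIs over Mki67, Top2a, Ube2c and Birc5, were set against cells with none of these UMIs in the same class and library. In macrophage-like cells (85 and 138 cycling cells) glycolysis genes were lower in cycling cells, with medians of −0.48 and −0.30 on the log2 scale and 0 of 18 and 1 of 19 members above 0, beside medians of 0.07 and 0.06 over all genes. Slc16a3 was 71.31 CPM in cycling and 179.3 CPM in other cells labelled wt, log2 −1.33 (−1.62 to −1.06), and −0.93 labelled cko. Bnip3 differed by log2 −1.65 and −0.80, Ankrd37 by −1.58 and −1.28 and Slc2a1 by −1.43 and −0.92. The 1 member above 0 was Hk3 labelled cko, at 0.37 (0.04 to 0.69), and labelled wt it was at −0.08. Monocyte-like cells (31 and 56 cycling) had medians of −0.23 and −0.31, with 2 of 14 and 2 of 18 members above 0, beside 0.01 and 0.03 over all genes.

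In lymphoid-like cells (45 and 54 cycling) the sign was the opposite. Glycolysis members had medians of 0.22 and 0.60, with 12 of 15 and 15 of 15 above 0, beside 0.08 and 0.12 over all genes. Gapdh was 3185.0 CPM in cycling and 1670.8 CPM in other cells labelled wt, log2 0.93 (0.83 to 1.03), and 0.60 (0.50 to 0.69) labelled cko. Ldha differed by log2 0.73 and 0.77, Tpi1, the triosephosphate isomerase, by 0.82 and 0.80, and Mif by 0.78 and 0.58. Of the 2 targets compared in both libraries, Higd1a was higher in cycling cells, at 0.62 and 0.34, and Ddit4 lower, at −0.43 and −0.70. Cycling cells were deeper, with medians of 19876 against 10369 UMIs in macrophage-like and 11724 against 5297.5 UMIs in lymphoid-like cells labelled wt. The part of depth in these differences was not tested, nor was that of the mix of T and NK cells in the lymphoid-like class.

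**Figure D5:**
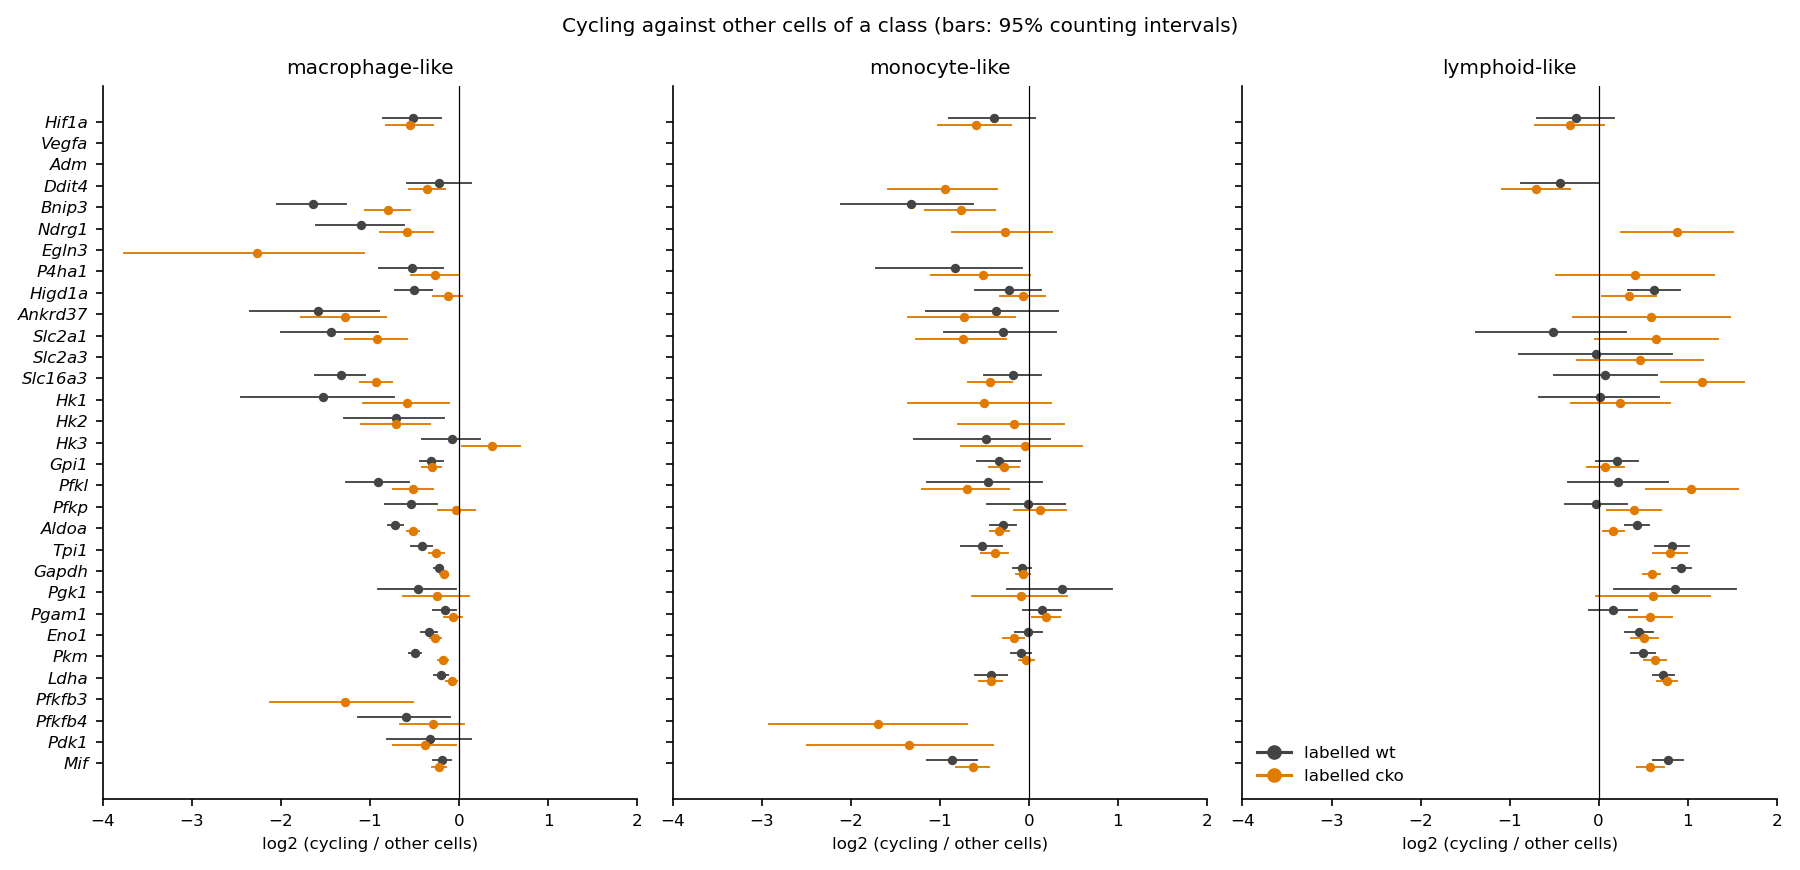
Log2 ratio of CPM in cycling cells over other cells of the same class for each gene and library, with exact 95% counting intervals; genes with too few UMIs are not drawn. Nearly all points lie left of 0 in macrophage-like cells and most lie right of 0 in lymphoid-like cells.

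Within macrophage-like and monocyte-like cells, targets and enzymes varied together from cell to cell. Across cells thinned to 3000 UMIs, the summed targets and the summed glycolysis members had Pearson's r of 0.61 and 0.60 over 580 and 793 macrophage-like cells and 0.59 and 0.67 over 1100 and 1050 monocyte-like cells. These cells share a library, and cells are not replicates. Macrophage-like cells labelled wt without a target UMI (34.48% of cells) held a mean of 23.41 glycolysis UMIs of 3000, those with 1 or 2 held 26.53, those with 3 to 5 held 39.6 and the 25 cells with 6 or more held 67.48. Labelled cko the means were 24.22, 27.14, 37.39 and, in 44 cells, 64.02. Monocyte-like cells gave 25.54, 29.05, 39.88 and 62.88 labelled wt and 25.5, 29.69, 43.29 and 66.92 labelled cko. Before thinning, macrophage-like cells without a target UMI had medians of 11852 and 12014 UMIs, and those with 6 or more 9049 and 8617. In monocyte-like cells the medians were 7537.5 and 7775.5 against 7262 and 6692 UMIs. The part of depth and of cycling cells in these values was not tested. The variance of the target counts was 3.787 and 3.022 times the mean in macrophage-like and 3.09 and 2.903 times in monocyte-like cells.

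The members did not contribute alike. On the same thinned counts, Bnip3 had r between 0.44 and 0.61 with the sum of the other targets, Tpi1 between 0.39 and 0.50 and Aldoa between 0.40 and 0.55 over the 2 classes and libraries. Ddit4 had r between 0.07 and 0.17, Hif1a between 0.07 and 0.12, Hk3 between −0.04 and 0.06 and Pfkfb4 between −0.03 and 0.03. Ddit4 and Hk3, the 2 members past the fold between libraries in these classes, thus varied little with the other targets within a library. On the log of each cell's unthinned, depth-scaled counts, the 8 of 2127 other genes across macrophage-like cells most like the summed targets, by the lower r of the libraries, were Srgn (0.36 and 0.37), Anxa2, Card19, Lgals3, Clec4d, Hmox1, Adam8 and F10.

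A list of 58 other genes of hypoxia, glycolysis and the pentose phosphate path was counted the same way. Between libraries, 1 of 31 compared passed the fold in monocyte-like cells, Eno3 with 35.74 and 22.62 CPM, lower in the library labelled cko (all genes: 1.2%). Of 32 in macrophage-like cells, Eno3 was higher, at 26.15 and 38.01 CPM (all genes: 3.62%), and the monocarboxylate transporter gene Slc16a1 lower at log2 −0.65 (all genes: 1.18%). In granulocyte-like cells 1 of 2 passed it, the heme oxygenase gene Hmox1 with 702.5 and 277.7 CPM, lower labelled cko (all genes: 18.6%). In lymphoid-like cells 2 of 14 did so, the transcription factor genes Bhlhe40 and Rora, higher at log2 0.86 and 0.90 (all genes: 4.14%). Between classes, monocyte-like cells were higher past the fold for 3 of 35 (all genes: 3.43%), which were Bhlhe40 (log2 1.56 and 1.76), Slc2a6 (2.84 and 2.67) and Ldhb (1.71 and 1.29), and lower for 2, Car9 and Plod1 (all genes: 6.43%). Granulocyte-like cells were lower for 1 of 6, Pgls (all genes: 27.9%). Lymphoid-like cells were higher for 2 of 24, Bhlhe40 and Eno3 (all genes: 8.08%), and lower for 4, Plod1, Hmox1, G6pdx and Taldo1 (all genes: 16.1%).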

How the data were processed

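Raw UMI counts per gene and cell, made per the labels with Cell Ranger on mm10 (Seurat is also named; versions and annotation are not given in the sources used here), were deposited by the authors for cells already called. Thus strand, multimapped reads and shallow barcodes had been handled before deposit, and no barcode had fewer than 3184 UMIs. Cells under 200 genes or over 10% mitochondrial UMIs were dropped, 4 labelled wt and 14 labelled cko. Scrublet (scanpy 1.11.5) marked 2 and 5 cells, 0.136% in all and under the 0.5% taken as failure, so the highest-scoring cells were removed at 0.8% per 1000 cells (48 and 58 cells).

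Gates used summed UMIs: macrophage-like, at least 10 of C1qa, C1qb and C1qc and under 3 of Ly6c2; transitional, the same C1q minimum with at least 3 of Ly6c2; monocyte-like, at least 10 of a marker list with Ly6c2, Ccr2, Plac8, Chil3 and Vcan, no more than 2 lymphoid UMIs and below the C1q minimum; granulocyte-like, at least 100 of S100a8 and S100a9 and 5 of Csf3r, Cxcr2, Retnlg, G0s2 and Mmp9; lymphoid-like, at least 5 of a list with Cd3d, Cd3e, Cd3g, Cd2, Ncr1, Klrb1c, Il2rb, Cd79a, Cd79b and Ms4a1, and no more than 2 of Adgre1 and Ms4a7. The monocyte and lymphoid lists each held 1 further gene that is not reported here. Nonclassical, dendritic, mast, tumor or stromal and mixed cells were set apart. Gate minimums were set after the data had been seen, the class names were rebuilt from markers and may not match the study's populations, and the members and lists were chosen with earlier results of these data known.

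UMIs were summed per class and library and scaled to CPM, with exact Poisson intervals for levels and exact conditional binomial intervals for log2 ratios (scipy 1.17.1). With 1 library per group no test was made, and fixed size rules took its place, on all genes with enough UMIs. All members were named, with values for targets, paralog sets and members past a rule. The calculation was checked on simulated Poisson counts with known ratios for macrophage-like and lymphoid-like cells. Their intervals held the true ratio for 95.07% and 95.3% of genes. The simulation held no variation among cells, mice or pools and did not cover granulocyte-like cells. Shares of cells were taken after thinning to 3000 UMIs. Alternatives covered edgeR 4.0.16 TMM factors, means over cells, thinning, stricter gates, doublets, minimum UMIs, the richest cell, cycling cells and a 5% mitochondrial limit, and, added after seeing the data, totals without S100a8 and S100a9 and TMM factors on summed levels. Promoters came from RefSeq (GRCm38.p6), gene positions from GENCODE (GRCm38).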

Additional observations from a re-analysis of the deposited data

Results flagged for a closer look

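Hmox1, the heme oxygenase gene, lay on opposite sides in 2 gates. Its log2 ratio, cko over wt, was 0.91 in transitional cells (231.1 and 435 CPM) and −1.34 in granulocyte-like cells (702.5 and 277.7 CPM), and the difference between the gates was not tested. In monocyte-like and macrophage-like cells it was −0.13 and −0.23.

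Eno3, the muscle-type enolase gene, was at log2 0.54 in macrophage-like cells (205 and 385 UMIs) and at −0.66 in monocyte-like cells (310 and 187 UMIs). This difference was not tested either.

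Adm stood at 56.5 CPM in the 100 cells labelled cko that no gate took, against 2.01 CPM in the 98 such cells labelled wt. A single cell of 6325 UMIs held 49 of the 112 Adm UMIs of its library (43.75%). That cell also held 11 Ddit4, 13 Bnip3, 14 Ndrg1, 12 Slc2a1, 58 Spp1 and 79 Gapdh UMIs, 2 of the leukocyte marker Ptprc and 0 of C1qa, Ly6c2, Krt8 and Krt18.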

How the results depend on the processing

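Of 726 values of single genes under an alternative, 669 stayed within the counting interval of the main value and 57 left it. Of 210 list medians, 25 left the range between the medians of their members' interval bounds. Counts of members have no interval, and 24 of 77 changed by more than a fixed factor. Where the main interval or range left out 0, 0 values changed sign. Others did, such as Bnip3 in macrophage-like cells, cko over wt (between log2 −0.07 and 0.15). There were no replicates to leave out. No paired analysis was possible because each group has 1 library. The cause of the shifts below was not tested. Depth limits Vegfa, Adm and all granulocyte-like values.

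Under the alternatives, here and for the classes below, only members were counted, and the share of all genes past the fold was not. TMM factors move the ratios of all genes alike. Members past log2 0.5 between libraries were 4 instead of 2 in monocyte-like cells with no minimum. In granulocyte-like cells the 2 became 6 with TMM, 10 with no minimum, 1 with means over cells, with doublets kept or with the minimum doubled, and 0 with thinning or stricter gates. In lymphoid-like cells the 2 became 6 with no minimum, and 1 with thinning, the minimum doubled, without cycling cells or at 5% mitochondrial UMIs. The glycolysis median in granulocyte-like cells was 0.51 with TMM, and the target median in lymphoid-like cells 0.15 with the minimum doubled.

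Against macrophage-like cells, the 1 member of monocyte-like cells became 2 with TMM, stricter gates or without the richest cell, and 0 with means over cells, thinning, doublets kept or without cycling cells. The glycolysis median labelled wt was 0.44 with TMM, 0.27 with means, 0.25 thinned and 0.28 without cycling cells, and labelled cko 0.42 and 0.22 with TMM and thinning. The 1 member of granulocyte-like cells became 0 with stricter gates or the minimum doubled, where Slc16a3 missed the minimum and not the fold (log2 2.60 to 3.16), and 7 with no minimum. Its glycolysis medians were 0.65 and 1.05 with TMM and, labelled cko, 0.56 with no minimum and 0.66 without S100a8 and S100a9. Its target medians were 0.96 labelled wt with no minimum and 0.72 labelled cko with TMM. The 7 members of lymphoid-like cells became 4 with thinning and 6 with TMM. Its target medians were −0.75 and −0.54 with means and, labelled cko, −0.58 without cycling cells, and its glycolysis medians were −0.27 and −0.30 with TMM, −0.28 and −0.30 with means, −0.32 and −0.30 thinned and −0.23 and −0.37 without cycling cells.

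In every alternative run, Ddit4 lay between log2 0.75 and 0.87 in monocyte-like and between 1.21 and 1.39 in macrophage-like cells, and Hk3 between −0.86 and −0.73 and between −0.67 and −0.52.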

Other observations

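Within monocyte-like cells, Ddit4 stood at 37.22 (31.81 to 43.3) CPM labelled wt and 58.63 (51.67 to 66.27) CPM labelled cko in cells with at least 3 Ly6c2 UMIs, and at 48.79 (42.31 to 55.98) and 94.63 (85.22 to 104.8) CPM in cells with fewer. Transitional cells held 42.62 (35.16 to 51.2) and 100.2 (87.1 to 114.8) CPM and macrophage-like cells 51.54 and 122.1 CPM. In this order from monocyte-like to macrophage-like cells each value labelled cko stood above the one before it, although the intervals of the Ly6c2-low and the transitional cells overlapped, whereas labelled wt the transitional value was below that of the Ly6c2-low cells, with overlapping intervals.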
